A study of Rattus norvegicus with 20 samples.

Results

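Dorsal root ganglia taken 21 days after a chronic constriction injury (CCI) of the sciatic nerve were compared with ganglia taken 14 days after the same injury, as 3 arrays against 3 over 8740 probe sets. These 6 arrays belong to a set of 20, which also covers a partial nerve injury model (Seltzer, called nerve transection in the labels) and sham surgery. Every sample was total RNA of rat ganglia from the operated side, read on 1 Affymetrix array. Both CCI groups carried the same injury and differ in the labels by the time after it, besides a lot batch that is given for 3 of the 6 arrays. The rats' strain, sex and age, the segmental level of the ganglia and the number of animals per sample are not given. Sham-operated ganglia at 21 days (n = 3) are shown beside them as the uninjured level, and sham ganglia at 14 and 50 days (n = 2 each) serve where the day itself is in question. Whether a group's samples stem from different rats is not stated, so p-values cover only the spread among these samples, which may be technical.

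In CCI, loose ligatures around the sciatic nerve damage some of its axons and inflame the nerve, and the hind paw becomes sensitive to touch and heat. The ganglion holds the cell bodies of the injured sensory neurons with their satellite glia, Schwann cells, vessels, resident macrophages and connective tissue. Injured neurons are known to switch on a regeneration programme, with the transcription factor Atf3 and the neuropeptides galanin and neuropeptide Y among its best-known members, and to lower several pain-related peptides and channels. The comparison asks what changed within these ganglia between the early and the later time.

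Values below 0 served to set each array's background level, at the 95th percentile of their sizes. It lay at 499 on CCI 21-day replicate 1, at 234 and 246 on the other CCI 21-day arrays, at 176 to 232 on the CCI 14-day arrays and at 180 to 318 on the sham 21-day arrays. CCI 21-day replicate 1 stood apart from the other CCI arrays, with which its log2 values correlated at 0.780 to 0.793, while pairs within a group that left it out correlated at 0.933 to 0.965. Results are therefore given with and without it. As a sign of RNA quality, the GAPDH control probes for the transcript's 3' end read brighter than those for its 5' end, by a ratio of 2.26 to 2.35 at 14 days and 1.68 to 1.91 at 21 days in CCI. Time after injury cannot be told apart from anything else that differed between the collections of the CCI groups. Transcripts that mark the labelled tissue were above background on all 6 CCI arrays, among them those of the neurofilaments, of the substance P and CGRP precursors of sensory neurons, and of myelin basic protein.

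Few probe sets differed between the days. With p-values from limma adjusted by Benjamini-Hochberg and a threshold of 0.05, 13 were higher and 19 lower at 21 days, together 0.366% of those tested. At an unadjusted p under 0.05, 7% passed, and 5.01% without CCI 21-day replicate 1. Without CCI 21-day replicate 1 there were 16 higher and 23 lower, or 0.446%, and 26 of the 32 were among them. The ranges of the CCI groups did not overlap in any of the 32. Over all probe sets, 7.51% had every 21-day array above every 14-day array, and 8.17% had the reverse. Of the 32, 9 were not above background on any CCI array, 8 of them lower, as were 6425 of all 8740. Among the 936 probe sets above background on all 6 CCI arrays, the median size of the log2 difference was 0.19, and 88.0% differed by less than 0.5. The median half-width of their 95% intervals was 0.49.

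The sham 21-day mean lay between the CCI means for all 19 lower probe sets and for 7 of the 13 higher ones, as for 3095 of all 8740. The 32 were called for a difference between the CCI means, so these counts are a description. For 11 of the 19, every CCI 14-day array exceeded every sham 21-day array, and every sham 21-day array exceeded every CCI 21-day array, an order that 0.217% of all probe sets showed. The 19 were called by the CCI day difference, which is part of this order, so the count is a description and no further support. The 11 read above the sham 21-day arrays at 14 days and below them at 21 days. Sult2a6 and M37942exon#2-3_s_at, both among the 11, were not above background on any CCI array. Sham arrays themselves were not at one level: in 10 of the 11, both sham 50-day arrays (n = 2) lay below all 3 sham 21-day arrays too. The GAPDH 3' control was dimmer on these 2 arrays, at 1543 and 1480, against 3512 to 4518 on the sham 21-day arrays. Day and array quality cannot be told apart there, and how many of all probe sets had sham 50-day arrays this low was not counted. Among the lower probe sets were the main contractile and energy genes of skeletal muscle. Of the 13 higher ones, 9 were among 15 probe sets of 6 sequence entries, most of them without a gene in the probe table.

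**Figure D1:**
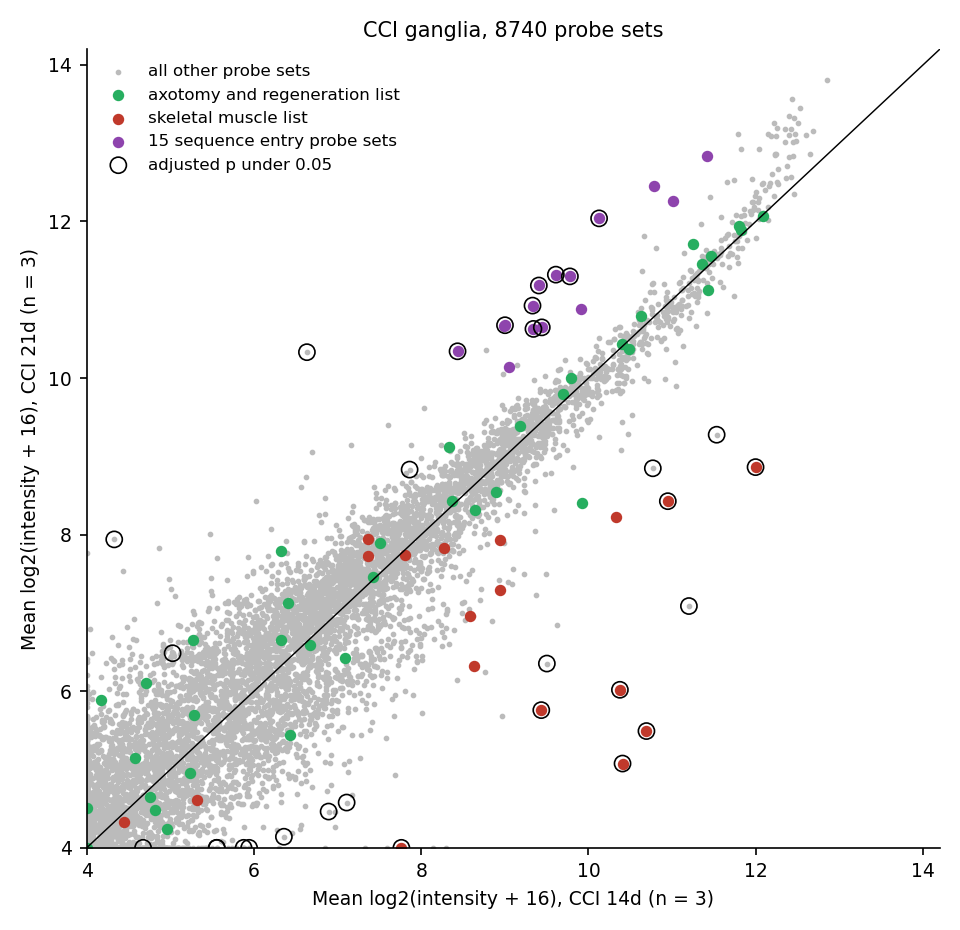
Each point is 1 of 8740 probe sets, placed by its mean log2(intensity + 16) over 3 CCI arrays at 14 days (horizontal axis) and at 21 days (vertical axis), and the diagonal marks equal values. The skeletal muscle genes past the threshold lie below the diagonal and the 15 probe sets of the 6 sequence entries above it, and rings mark the 32 probe sets past the threshold.

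Skeletal muscle genes were lower at 21 days. Of 18 genes of a muscle list that the array measured, 7 fell and none rose, where 0.359% of all 4736 genes, each taken at 1 probe set, passed the threshold. In 12 of the 18, every 21-day array was below every 14-day array, as in 7.52% of all genes. The median log2 difference of the list was -1.87, against 0.04 over all genes. Without CCI 21-day replicate 1, 9 of the 18 fell and the median was -2.28. Muscle fibres are not part of a ganglion. Whether muscle was taken along with it was not tested, and in bulk tissue fewer cells of a type and less RNA per cell cannot be told apart. The summed intensity of the 18 genes was 14772 to 15521 on the CCI 14-day arrays, 2167 to 3529 on the CCI 21-day arrays, 6425 to 7325 on the sham 21-day arrays and 6487 to 7748 on the sham 14-day arrays.

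The regions just before the starts of 4 of these genes are shown as examples of the muscle genes that fell. Each is the 250 bases upstream of the RefSeq start on build GRCr8, read 5' to 3' along the gene's own strand, from chr19:68784195-68784444, minus strand (Acta1), chr10:52421898-52422147, plus strand (Myh4), chr1:88189211-88189460, plus strand (Ckm) and chr1:191260039-191260288, plus strand (Myl11). Capitals mark every match, on either strand, to CAGCTG (a core of the sites bound by the MyoD family), to TATAA, to the CArG box bound by serum response factor and to the site bound by MEF2 factors.
Acta1: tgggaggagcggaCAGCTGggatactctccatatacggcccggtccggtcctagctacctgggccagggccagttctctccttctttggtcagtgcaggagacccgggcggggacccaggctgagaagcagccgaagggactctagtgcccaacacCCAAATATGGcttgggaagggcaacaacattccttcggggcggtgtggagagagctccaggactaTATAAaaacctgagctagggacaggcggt
Myh4: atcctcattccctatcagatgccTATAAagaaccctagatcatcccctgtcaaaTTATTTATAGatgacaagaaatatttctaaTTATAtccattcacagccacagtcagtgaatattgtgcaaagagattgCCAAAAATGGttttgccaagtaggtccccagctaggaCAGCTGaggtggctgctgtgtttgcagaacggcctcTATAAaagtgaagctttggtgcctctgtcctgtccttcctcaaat
Ckm: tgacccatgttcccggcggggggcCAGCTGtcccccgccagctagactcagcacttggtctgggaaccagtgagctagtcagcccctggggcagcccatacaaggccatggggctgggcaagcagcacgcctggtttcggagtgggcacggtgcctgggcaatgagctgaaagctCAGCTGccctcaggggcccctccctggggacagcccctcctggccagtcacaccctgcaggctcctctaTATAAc
Myl11: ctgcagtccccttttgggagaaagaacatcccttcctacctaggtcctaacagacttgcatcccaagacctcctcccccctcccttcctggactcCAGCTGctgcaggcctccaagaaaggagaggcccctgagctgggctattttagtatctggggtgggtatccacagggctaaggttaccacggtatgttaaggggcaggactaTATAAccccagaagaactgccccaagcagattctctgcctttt
All 4 hold CAGCTG and TATAA, and Acta1 and Myh4 also hold a CArG box. Matches of these motifs may overlap one another. Of the 18 muscle genes, 17 had a sequence in the table, and 7 of them held CAGCTG, 9 TATAA, 2 a CArG box and 2 a MEF2 site. Over all 33469 promoter sequences of the table, 12% held CAGCTG, 24% TATAA, 1.5% a CArG box and 1.68% a MEF2 site within the same length. Over the 3880 promoters of genes on the array, 1 per gene, the shares were 13.2%, 18.6%, 1.6% and 1.24% in the same order. A match describes the letters and says nothing of binding in these ganglia.

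Among the proteins of the thin and thick filaments, Acta1, the actin of skeletal muscle fibres, gave intensities of 4017, 3818 and 4406 at 14 days and 421, 497 and 434 at 21 days in CCI, and 1383, 1803 and 1741 in sham ganglia at 21 days. These groups were separate, with sham at 21 days in the middle, while sham ganglia at 50 days read 312 and 262, below CCI at 21 days. The log2 difference was -3.13 (SE 0.19, adjusted p = 9.96e-07), at least 8.56-fold, where "at least" means that the dimmer group was not above background on every array and was set no lower than that level, and folds are ratios of geometric means. Myh4, the myosin heavy chain of fast IIb fibres, gave 1886, 1804 and 2214 at 14 days, 649, 203 and 265 at 21 days and 711, 1291 and 1427 in sham, a log2 difference of -2.52 (SE 0.37, adjusted p = 0.00622) and at least 5.63-fold. Its highest 21-day value was on replicate 1, and without that array the difference was -2.996 (adjusted p = 0.000251).

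Myl11, the regulatory light chain of fast myosin, read 1418, 1804 and 944 at 14 days, -65.1, 54.9 and 17.9 at 21 days and 262, 514 and 236 in sham. At 21 days it was not above background on any CCI array, and its log2 difference was -5.33 (SE 0.55, adjusted p = 0.000242), at least 4.38-fold. The other Myl11 probe set went the same way by -2.77 (SE 0.58, adjusted p = 0.0791) and fell only without replicate 1, by -3.28 (adjusted p = 0.0366). Tnnc2, the calcium-binding subunit of fast troponin, read 683, 663 and 684 at 14 days and 44.4, 48 and 25.1 at 21 days, with 10.7, 169 and 220.0 in sham. Its difference was -3.68 (SE 0.60, adjusted p = 0.0166), at least 2.21-fold, and leaving out any 1 of the CCI 14-day arrays, or CCI 21-day replicate 3, ended the call (adjusted p = 0.0643 to 0.0798). Sham and CCI 21-day values of Tnnc2 overlapped.

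Of the genes that drive contraction, Ckm, the creatine kinase that buffers ATP in muscle, was at background at 21 days. It read 1579, 1546 and 1805 at 14 days against 39.9, 8.39 and 50.8 at 21 days, where sham ganglia gave 1372, 707 and 735 at 21 days and -62.9 and 59.2 at 50 days. The log2 difference was -5.20 (SE 0.51, adjusted p = 0.00018), at least 5.36-fold. Atp2a1, the calcium pump of the fast sarcoplasmic reticulum, read 1382, 1322 and 1238 at 14 days, -73.1, 115 and 114 at 21 days and 404, 488 and 345 in sham, a difference of -4.36 (SE 0.58, adjusted p = 0.0027) and at least 4.29-fold. Both separated the 3 groups without overlap. Eno3, the muscle enolase, had a log2 difference of -3.76 (SE 0.38, adjusted p = 0.000214), but its 14-day values of 234, 204 and 170.0 were not above background on every array, so no fold is given. With only the 6 CCI arrays in the fit, the calls of Myl11, Atp2a1, Myh4 and both Tpm1 probe sets were lost (adjusted p = 0.122, 0.374, 0.286, 0.155 and 0.161), while those of Acta1, Ckm, Tnnc2 and Eno3 held. Raising all values to a floor of 200 left Eno3 with a difference of -0.09 (adjusted p = 0.521).

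Tpm1 encodes a tropomyosin of striated and smooth muscle, and 2 of its 5 probe sets fell. M34134_s_at read 2676, 2967 and 3221 at 14 days, 424, 586 and 886 at 21 days and 2100.0, 1523 and 1930.0 in sham, a log2 difference of -2.26 (SE 0.21, adjusted p = 0.000102). X02412_at read 1713, 1684 and 1793, 658, 354 and 376 and 691.6, 949.6 and 883 in the same order, -1.92 (SE 0.19, adjusted p = 0.000192), and its 3.89-fold difference was measured above background on both sides. The other 3 Tpm1 probe sets had differences of -1.13, -0.15 and 0.20, none past the threshold, so the probe sets of this gene disagreed. A probe set without a gene, L00088expanded_cds#2_at, moved with them: 2175, 2405 and 2443 at 14 days, 95.6, 128 and 141 at 21 days and 1052, 763 and 740.1 in sham, -4.11 (SE 0.22, adjusted p = 4.62e-07), at least 7.64-fold.

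The rest of the muscle list did not pass. Among the genes named for fast fibres, the troponin Tnnt3 had a difference of -2.11 (SE 0.53, adjusted p = 0.202), Tnni2 of -2.31 (SE 0.54, adjusted p = 0.149), the myosin light chain Myl1 of -1.64 (SE 0.33, adjusted p = 0.0699) and the binding protein Mybpc2 of -1.63 (SE 0.35, adjusted p = 0.0942), each with every 21-day array below every 14-day array. Pvalb, a calcium buffer of fast fibres that large sensory neurons also express, had -1.004 (SE 0.24, adjusted p = 0.161). Tnni1, the slow-fibre troponin, had 0.59 (SE 0.39, adjusted p = 0.741) with its highest value on replicate 1, and Myh1, Myh2, Casq1, Tpm2 and Pgam2 had differences between -0.71 and 0.37, mostly below background. Besides these, the lower probe sets included low signals for Ldb3 and Mybpc1 (sarcomere proteins), Myh6 (a cardiac myosin), Ckmt2 (the mitochondrial creatine kinase of muscle), Mybbp1a, Sult2a6 and Dhrs7c, none above background on every array of either CCI group. Ldb3, Mybpc1 and Myh6 lost their calls without replicate 1 (adjusted p = 0.134, 0.118 and 0.138). The remaining ones were S68736_at, matched to several genes (-3.15 (SE 0.40, adjusted p = 0.00176)), and M37942exon#2-3_s_at, with none (-2.22 (SE 0.25, adjusted p = 0.000537)). The latter was not above background on any CCI array. S68736_at was lower at 21 days in sham as well, with 853 and 996 at 14 days and 66.4, 129.6 and 145 at 21 days, a log2 difference of -2.91 (adjusted p = 0.00264), and the CCI difference minus that in sham was -0.24 (SE 0.60, adjusted p = 0.983).

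**Figure D2:**
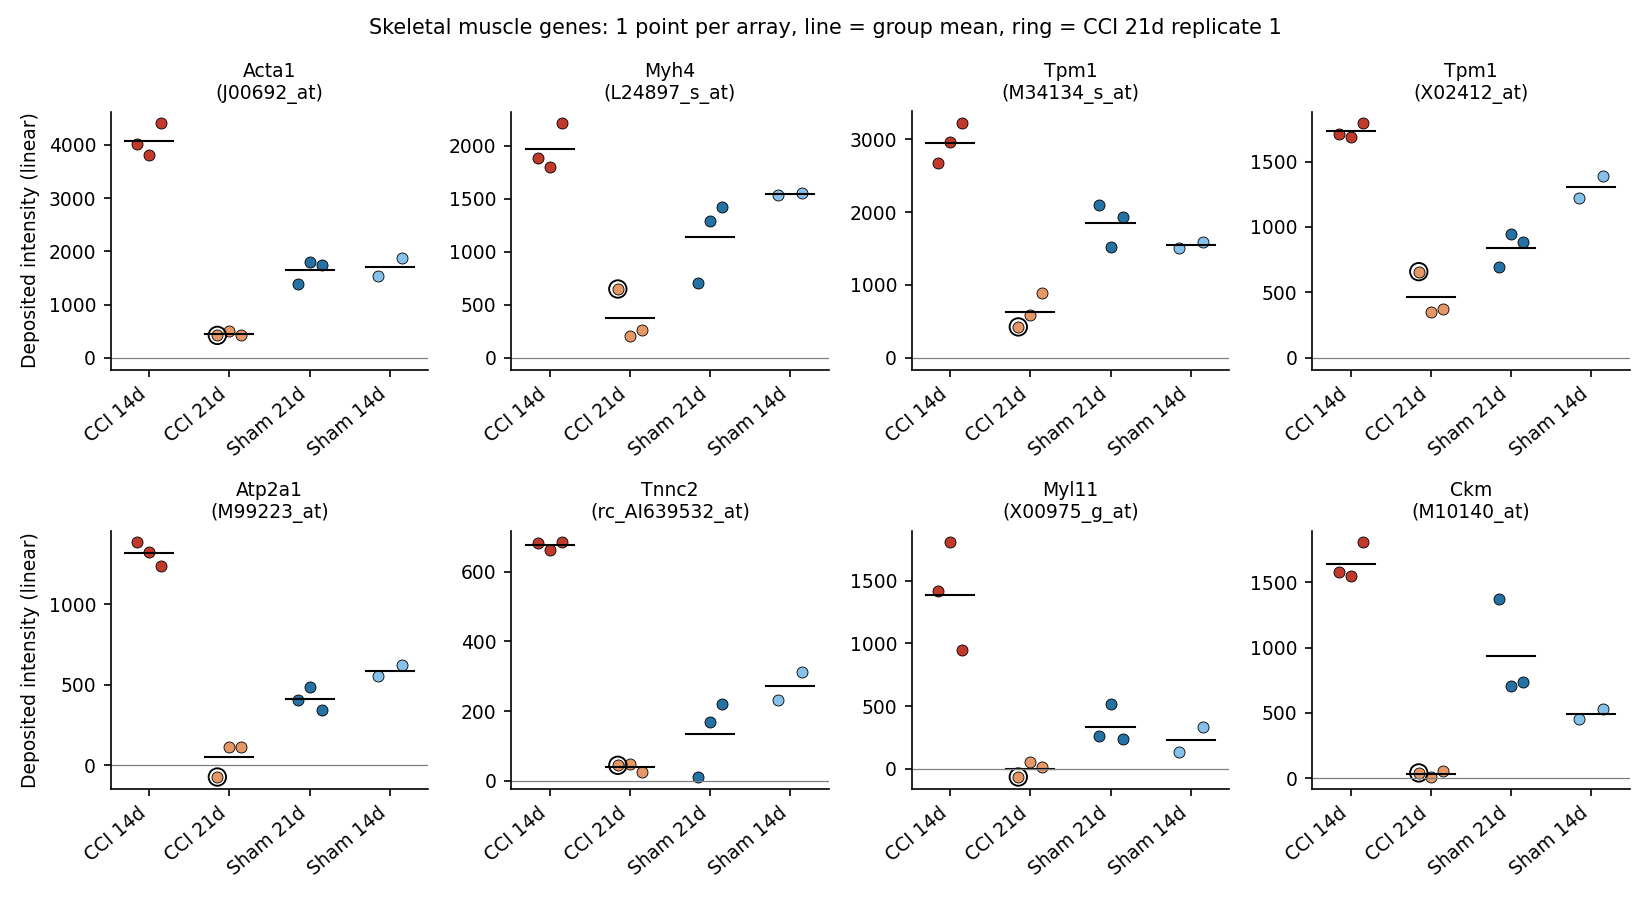
Deposited intensity on a linear axis of 8 probe sets of skeletal muscle genes, 1 point per array, with a line at each group mean and a ring around CCI 21-day replicate 1. In every panel the CCI 14-day arrays are the highest and the CCI 21-day arrays all lie below them, with most sham arrays in between, as for Acta1 with CCI 14-day values of 4017, 3818 and 4406 against 421, 497 and 434 at 21 days.

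The higher probe sets mostly shared a source. Of 15 probe sets whose IDs begin with the numbers of 6 sequence entries (M13100, M13101, X05472, X53581, X07686 and U83119), 9 rose, where 0.149% of all probe sets rose and 0.217% fell. The 1 probe set of M13101 was not among the 9. These entries were picked after their values were seen, most because their probe sets had risen, so their count is a description and supports nothing further. All 15 were above background on all 6 CCI arrays, and in all 15 every CCI 21-day array exceeded every CCI 14-day array and every sham 21-day array. The log2 differences ran from 0.98 to 1.91, or 1.98-fold to 3.89-fold, with a median of 1.60. Without CCI 21-day replicate 1 the count was also 9, with M13100cds#5_s_at lost and X05472cds#2_at gained. The probe table gives no gene for 12 of them. It gives Rpl19l4 for X07686cds_s_at, and Crp, the liver's C-reactive protein, for M13101cds_f_at and U83119_f_at. The other Crp probe set, rc_AA818144_at, read 17.7, 37.2 and 44.7 at 14 days and -69.1, -22.6 and 61.3 at 21 days, at background throughout, so the Crp probe sets disagreed.

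As background that the probe table does not give, M13100 is known as a rat long interspersed (L1) repeat, a sequence present in a very large number of genomic copies, and the endings _f_at and _s_at mark probe sets whose probes match more than 1 related sequence. Their signal cannot be assigned to a place in the genome, and the 15 probe sets may read overlapping sequence, so they are not 15 independent measurements. M13100cds#3_f_at read 1046, 1113 and 1150 at 14 days, 3752, 4310 and 4564 at 21 days and 1441, 1048 and 1052 in sham at 21 days, a log2 difference of 1.91 (SE 0.21, adjusted p = 0.000494). X53581cds#3_f_at read 746, 751 and 799, 2511, 2475 and 2645 and 795, 779 and 719.6 in the same order, with 1.71 (SE 0.08, adjusted p = 2.03e-07). In both, CCI at 14 days and sham at 21 days overlapped and CCI at 21 days was higher. High values were not limited to CCI: sham ganglia at 50 days read 5216 and 4539.5 for the former and 4268 and 4027 for the latter. In all 15 both sham 50-day arrays were above all CCI 14-day arrays, and in 6 they were above all CCI 21-day arrays. The shares of all probe sets with these orders were not counted.

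X05472cds#1_s_at read 644, 676 and 668 at 14 days, 2681, 2001 and 2292 at 21 days and 738, 542 and 597 in sham, 1.78 (SE 0.16, adjusted p = 7.5e-05). X07686cds_s_at, the Rpl19l4 probe set, read 339, 355 and 299, 1345, 1482 and 1057 and 529, 425 and 413, 1.91 (SE 0.23, adjusted p = 0.000831). Here sham at 21 days lay between the CCI groups, and sham at 50 days, with 5731 and 4950.0, above both. U83119_f_at rose least among the 9, from 687, 718 and 636 to 1328, 2001 and 1507 with 347, 685 and 433 in sham, 1.21 (SE 0.23, adjusted p = 0.0415). Its call was lost when any CCI 14-day array, or CCI 21-day replicate 2 or 3, was left out (adjusted p = 0.0847 to 0.161). X53581cds#5_f_at and M13100cds#5_s_at also lost theirs without any 1 of the CCI 14-day arrays, while the other 6 held when any 1 CCI array was left out. The 6 that did not pass had differences of 0.98 to 1.67 and adjusted p-values of 0.0557 to 0.548.

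For most of the 15 the day went the other way in sham ganglia. In 12 of the 15, both sham 14-day arrays were above all 3 sham 21-day arrays. The share of all probe sets with that order was not counted, and the 15 are not independent of one another. For X05472cds#1_s_at the sham 14-day values were 1988 and 1922, and for M13100cds#4_f_at they were 913 and 887 against 294, 402 and 454 at 21 days. The test of the day difference in CCI minus the day difference in sham passed in 12 of the 15, where 1.8% of all probe sets passed. The 15 were picked after their CCI day differences were seen. That difference is part of this test, so the count is a description and no further support. The CCI day difference minus the sham day difference was 3.41 (SE 0.23, adjusted p = 2.73e-06) for X05472cds#1_s_at and 2.98 (SE 0.13, adjusted p = 6.46e-08) for X53581cds#3_f_at.

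Bright probe sets as a class read higher at 21 days. Leaving these 15 out, 65 probe sets had a mean intensity over 4000 on the CCI arrays, and their median log2 difference was 0.40, with every 21-day array above every 14-day array in 52.3%. The median was 0.01 for the 135 between 2000 and 4000, -0.10 for the 222 between 1000 and 2000 and 0.01 for the 474 between 500 and 1000. The brightest probe set on an array reached 6177 to 8477 at 14 days and 12055 to 19587 at 21 days. The highest 14-day value of the 9 probe sets that rose was 1149.8. The part of the brightness of a probe set in these differences was not tested.

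**Figure D3:**
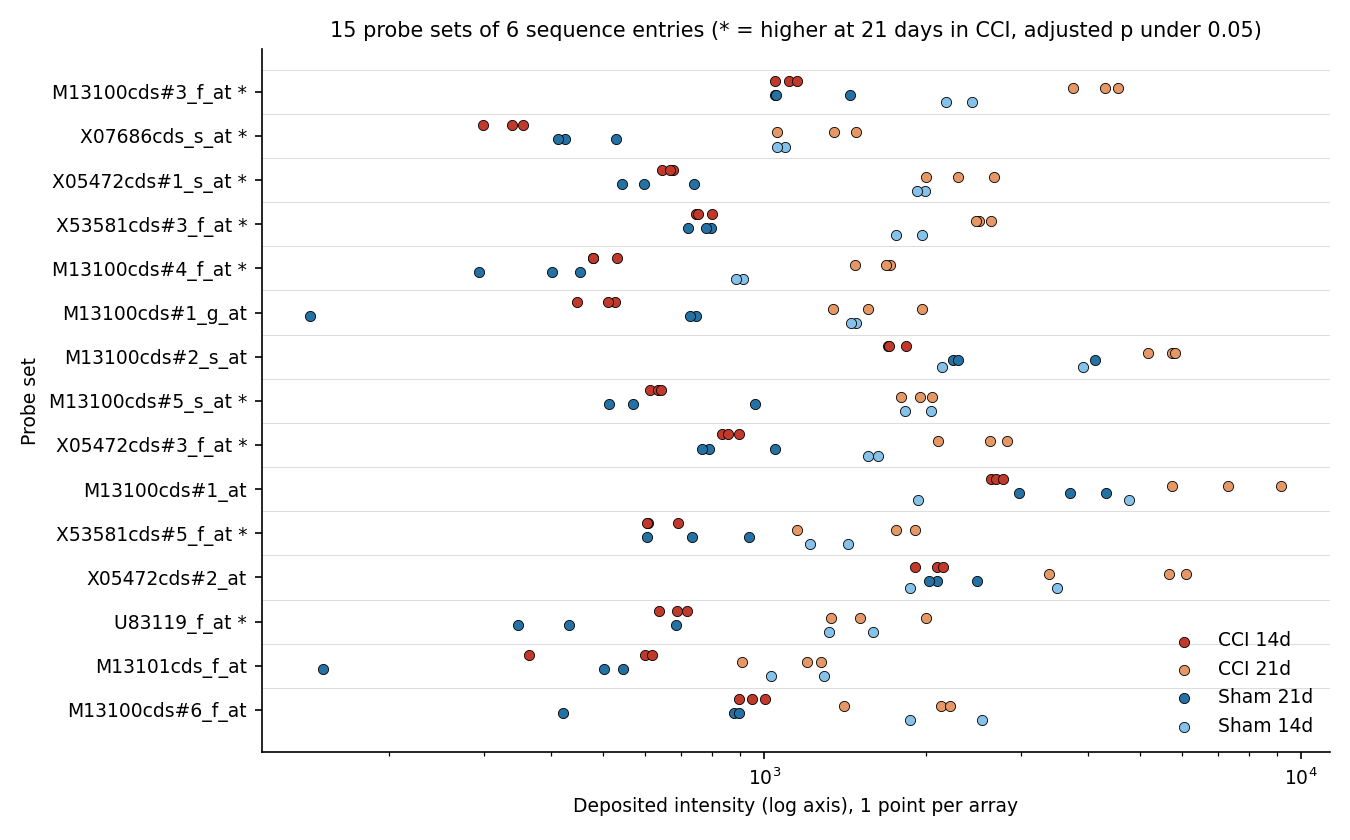
Deposited intensity on a log axis of the 15 probe sets from the 6 sequence entries, 1 row per probe set and 1 point per array, with an asterisk for the 9 that rose. The CCI 21-day points lie to the right of the CCI 14-day and sham 21-day points in all 15 rows, as for X53581cds#3_f_at with 2511, 2475 and 2645 against 746, 751 and 799, and in 12 rows both sham 14-day points lie to the right of all sham 21-day points.

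The 4 other probe sets that rose had no such common source. One of 3 for Kctd13, an adaptor of a cullin ubiquitin ligase, read 64, 128 and 68.9 at 14 days, never above background, and 1194, 1517 and 1136 at 21 days. Sham ganglia read 1425, 1581 and 1347 at 21 days and 1791 and 1833 at 14 days, so the CCI 14-day arrays were the low ones and CCI at 21 days lay near sham. The log2 difference was 3.70 (SE 0.18, adjusted p = 2.03e-07), at least 6.31-fold, and 3.74 (adjusted p = 1.7e-06) without replicate 1. The other 2 Kctd13 probe sets had differences of 0.04 and -0.005 and did not pass, so the probe sets of the gene disagreed. The call was lost with the CCI arrays alone without replicate 1 (adjusted p = 0.0897), a setting in which Ckm was lost too (adjusted p = 0.0898). Prrc2c read 226, 225 and 200 at 14 days and 481, 399 and 442 at 21 days, 0.97 (SE 0.17, adjusted p = 0.0209). It was above background on 2 of the 3 arrays in each CCI group. Its call was lost without any 1 of the CCI 14-day arrays and without CCI 21-day replicate 1 or 3 (adjusted p = 0.0643 to 0.111). In sham, Prrc2c read 436 and 476 at 14 days and 147, 165 and 205 at 21 days, a difference of -1.34 (adjusted p = 0.00118). Gucy1b1, a subunit of the nitric oxide receptor, had a difference of 1.46 (SE 0.26, adjusted p = 0.0254) below background, and 1.37 (adjusted p = 0.108) without replicate 1. The last, rc_AI179075_s_at, is matched to several genes and was highest on replicate 1, with 942, 121 and 97 at 21 days against -18.3, -19.1 and 15.8. Its difference was 3.61 (SE 0.67, adjusted p = 0.0403), and 2.63 (adjusted p = 0.0231) without replicate 1.

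No gene of the nerve injury programme passed the test between the days. Of 37 measured genes of the axotomy and regeneration list, none passed, and the median log2 difference was 0.09. In 3 of the 37, every 21-day array was above every 14-day array, as in 365 of all 4736 genes. In 1 the reverse held, as in 356 of all genes. At an unadjusted p, 2 of the 37 were higher and 0 lower, where 6.95% of all genes passed, 3.97% higher and 2.98% lower. Npy, a peptide that injured large neurons switch on, read 2826, 2563 and 2811 at 14 days and 1999, 2636 and 2067 at 21 days, against 61.4, 2.05 and -18.2 in sham. The CCI days overlapped and lay far above sham, and the difference between them was -0.30, 95% interval -1.45 to 0.85. Gal, the precursor of galanin, read 1373, 1508 and 1373 and 1391, 1293 and 1237 at the 2 days and -11.3, 58.9 and 81.1 in sham, a difference of -0.12, 95% interval -1.30 to 1.07. The intervals of both are wide.

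Atf3, the transcription factor that marks injured neurons, had a narrower interval. It read 852, 728 and 876 at 14 days and 933, 817 and 865 at 21 days, where sham read 183, 159 and 159.8, and the difference was 0.09, 95% interval -0.24 to 0.42. Gap43, a growth cone protein, read 2630.0, 2364 and 2879 and 2799, 2552 and 3036, with 657, 1402 and 1223 in sham, and differed by 0.09, 95% interval -0.45 to 0.63. Neither gene separated the days. Jun, the partner of Atf3, had -0.35, 95% interval -1.23 to 0.54, the secreted peptide precursor Vgf 0.21, 95% interval -0.35 to 0.77, the envelope protein Sprr1a 0.03, 95% interval -0.51 to 0.56 and Basp1, a growth cone membrane protein, 0.46, 95% interval -0.15 to 1.07. Of 4 Jun probe sets, 2 had differences above 0 and 2 below. The brighter of 2 Sprr1a probe sets averaged 1341 and 1396 in CCI at 14 and 21 days, against 1483 in sham at 21 days. The dimmer had -0.09. Vip was not above background on any CCI array.

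With all arrays, ion channels and receptors of sensory neurons did not pass either. Over their lists 0 of 10 sodium, 0 of 14 calcium and 0 of 19 voltage-gated potassium channel genes passed. Of 14 nociceptor transducer genes 0 passed, and 1 did without CCI 21-day replicate 1. By that fit Bdkrb2, a bradykinin receptor, rose by 0.71 (adjusted p = 0.00372). A probe set of the potassium channel Kcnj10 rose by 1.29 (adjusted p = 0.000114). Both were below background. Cacna2d1 encodes the alpha2delta-1 subunit that gabapentin binds. It read 3439, 3208 and 4012 at 14 days and 3096, 4409 and 4415 at 21 days, against 1497, 1139 and 1154 in sham, a difference of 0.15, 95% interval -0.17 to 0.47. All CCI arrays were above all sham arrays. Without replicate 1 the difference was 0.32, with an interval of 0.04 to 0.60, and it did not pass. Scn11a, the nociceptor sodium channel Nav1.9, read 571, 467 and 545 and 563, 546 and 615, below the 1202, 895 and 908 of sham, and differed by 0.12, 95% interval -0.30 to 0.55. Scn10a (Nav1.8) had 0.19, 95% interval -0.32 to 0.69, Scn9a (Nav1.7) 0.28, 95% interval -0.06 to 0.61, and the ATP receptor subunit P2rx3 0.10, 95% interval -0.42 to 0.62. P2rx2, its partner, had 0.69 (SE 0.27, adjusted p = 0.639) by the brightest of its probe sets, and the capsaicin receptor Trpv1 had 0.37, 95% interval -0.56 to 1.30, not above background on every array.

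Peptides of uninjured nociceptors did not pass. Tac1, the substance P precursor, read 1307, 1615 and 1687 at 14 days and 1969, 1249 and 1447 at 21 days, with 1108, 2312 and 2093 in sham. Calca, the CGRP precursor, read 1402, 1063 and 1292 and 2110.0, 1115 and 1255, with 734, 1946 and 1893 in sham. Both overlapped across days and with sham, and their differences were 0.00, 95% interval -0.57 to 0.57 and 0.20, 95% interval -0.56 to 0.96. Sst, the somatostatin precursor, had -0.87 (SE 0.65, adjusted p = 0.778), and was above background on all 14-day arrays and on no 21-day array. None of 18 neuropeptide genes passed.

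**Figure D4:**
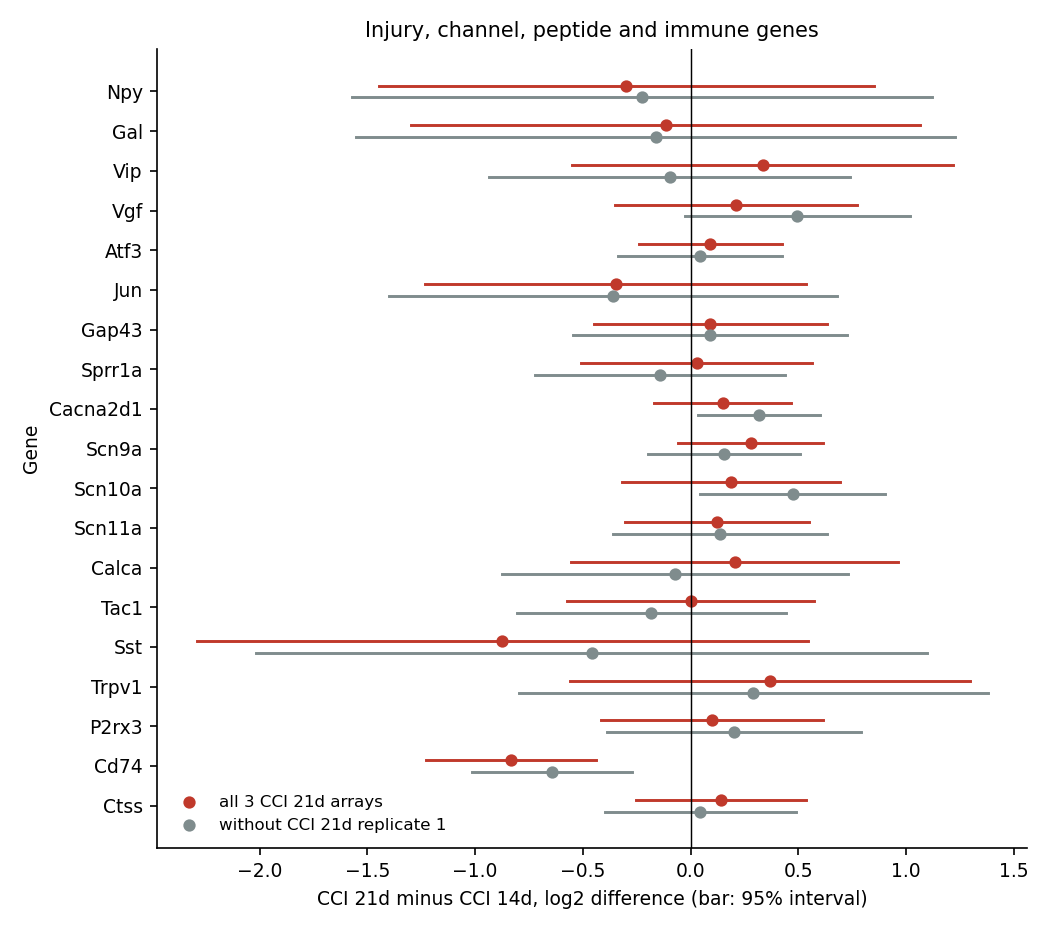
Log2 difference between CCI ganglia at 21 and 14 days for injury, channel, peptide and immune genes, with 95% intervals, for all 3 CCI 21-day arrays and without replicate 1. The intervals of most genes span 0, among them Atf3 at 0.09, 95% interval -0.24 to 0.42, and with all arrays only the interval of Cd74, at -0.83, leaves 0 out.

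No immune gene of the lists passed. Cd74, which encodes the class II invariant chain, read 1954, 2059 and 2251 at 14 days and 886, 1460.0 and 1210.0 at 21 days in CCI, against 288, 306 and 336 in sham at 21 days. The groups did not overlap. The log2 difference was -0.83 (SE 0.18, adjusted p = 0.1), which does not pass, and -0.64 (adjusted p = 0.319) without replicate 1. The call was gained with values floored at 200 (adjusted p = 0.0359), without CCI 21-day replicate 2 (0.0387) and over probe sets above background alone (0.0379). Sham ganglia read 686 and 606 at 14 days, so sham was lower at 21 days as well, by -1.02 (adjusted p = 0.0157). The CCI day difference minus that in sham was 0.19 (SE 0.27, adjusted p = 0.871). Another Cd74 probe set, X13044_g_at, had a CCI difference of -1.31 (SE 0.72, adjusted p = 0.724). Those below background had -1.41 for X14254cds_g_at and -0.43 for X14254cds_at, and the latter passed without replicate 1, at -1.73 (adjusted p = 1.65e-08). RT1-Da, a class II alpha chain, read 2115, 1830.0 and 2616 and 1470.0, 1705 and 1489, with 495, 503 and 442 in sham, and differed by -0.48 (SE 0.17, adjusted p = 0.588). RT1-Db1, a class II beta chain, had 0.06. Of 10 class II genes none passed, and the median was -0.21. In 2 of the 10, every 21-day array was below every 14-day array, where 7.52% of all genes were lower in this way. Ctss, the protease that cleaves the invariant chain, had 0.14, 95% interval -0.25 to 0.54. Neither the macrophage list (11 genes, median 0.05) nor the complement list (11 genes, median -0.23) had a gene past the threshold, and the macrophage genes Lyz2 and Lgals3 had differences of 0.01 and 0.05.

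Of 32 matrix genes measured, none passed and the median was -0.16. Among them 7 had every 21-day array below every 14-day array and 1 the reverse. Of all genes, 7.52% were lower in this way, and 365 of 4736 were higher. Col3a1, a fibrillar collagen, read 1646, 1593 and 1562 at 14 days, 718, 1217 and 1167 at 21 days and 1311, 1200.0 and 1241 in sham, a difference of -0.66 (SE 0.19, adjusted p = 0.358). Col1a2, a chain of type I collagen, had -0.59 (SE 0.26, adjusted p = 0.697), while Col1a1, its partner, had 0.22 by its brightest probe set and -0.59, -0.38 and -0.53 by the other 3, so its probe sets disagreed in sign. Among myelin genes, Pmp22 had 0.76 (SE 0.32, adjusted p = 0.688) and, by a dimmer probe set, -0.14, Cnp -0.88 (SE 0.36, adjusted p = 0.669) and Prx -0.44 (SE 0.20, adjusted p = 0.708), and the Cnp value was lowest on replicate 1, without which it was -0.36. The glial genes S100b and Glul had -0.09 and -0.26. Apoe, a lipid carrier of glia and by a bright probe set, had 1.10 (SE 0.66, adjusted p = 0.726), and by the other 0.04.

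Neurofilaments, the struts of large axons, had positive differences that did not pass. Nefh read 3606, 3002 and 3676 at 14 days and 6377, 5845 and 5526 at 21 days, with 8723, 3527 and 3367 in sham, a difference of 0.79 (SE 0.36, adjusted p = 0.708). Nefm had 0.62 and Nefl 0.50. The dimmer probe sets of Nefh and Nefl had 0.23 and 0.13. The 3 brighter ones had mean intensities over 4000, sham 21-day replicate 1 was the highest array for each, and the median of the 13 cytoskeletal genes was 0.32. Housekeeping lists lay near 0, with medians of -0.05 for 37 cytosolic ribosomal proteins, -0.09 for 35 genes of oxidative phosphorylation, 0.08 for 16 of glycolysis and -0.04 for 18 of the proteasome and ubiquitin system, and none of their genes passed. Cryab, a small heat shock protein, had -0.72 (SE 0.18, adjusted p = 0.202). Markers of red cells, fat, mast cells, T cells, neutrophils and endothelium, cells that could be taken along with a ganglion, also had no gene past the threshold, although 0 of the T cell, neutrophil and endothelial genes were above background in either CCI group.

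**Figure D5:**
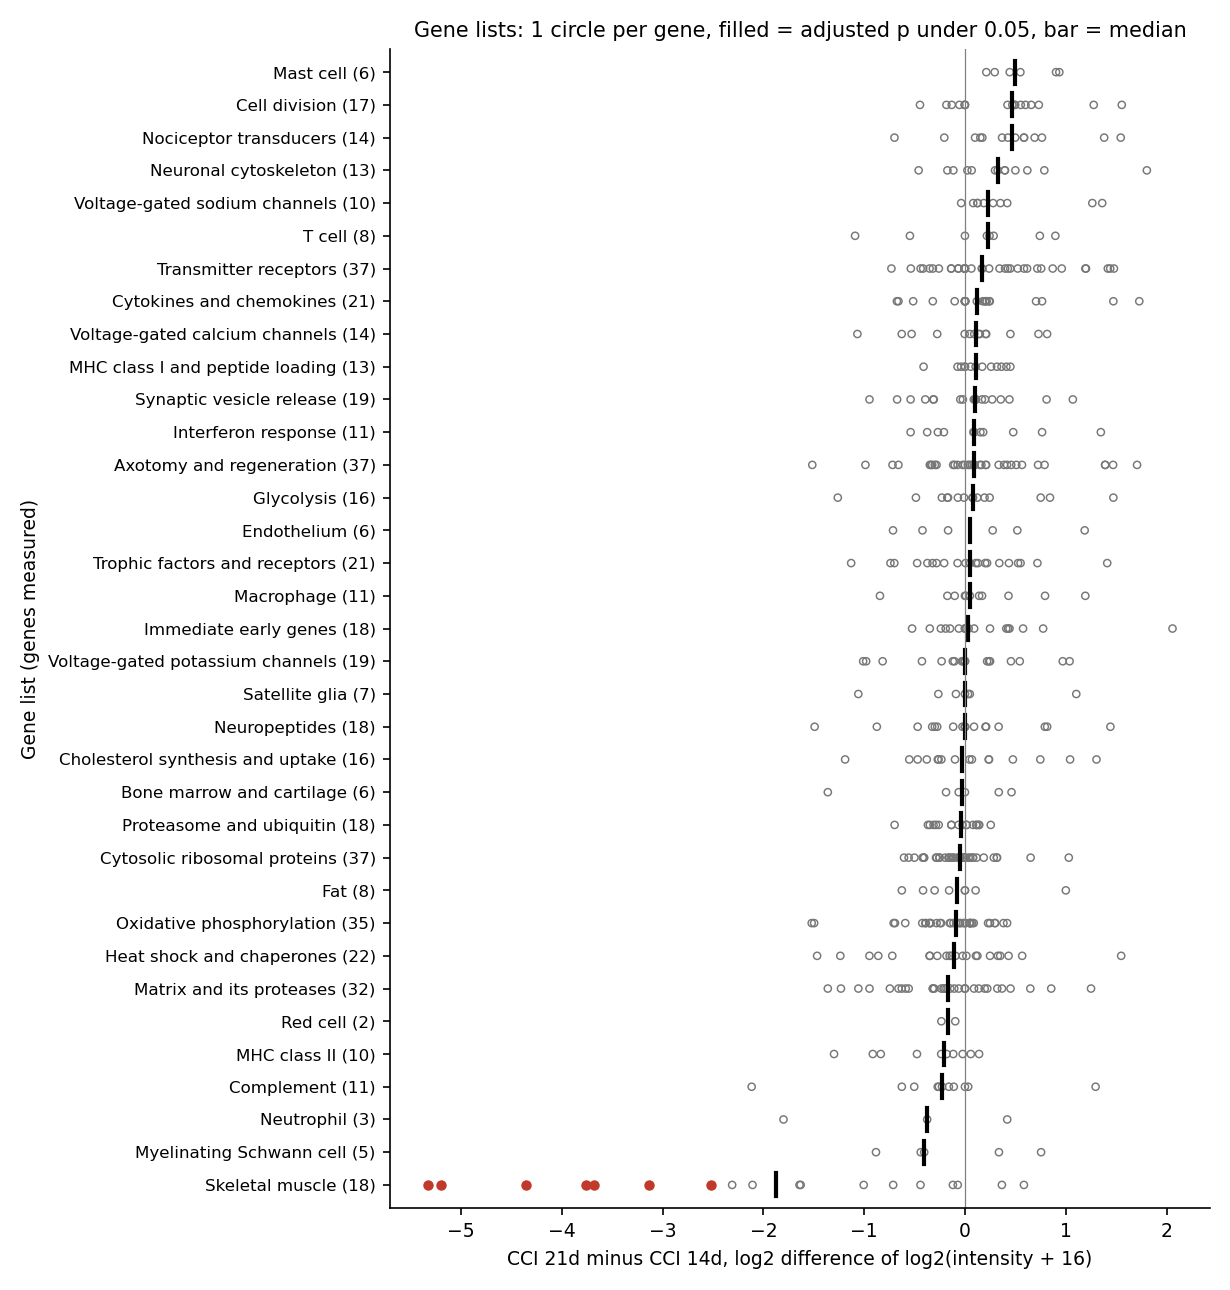
Log2 difference between CCI ganglia at 21 and 14 days for every measured gene of 35 lists, 1 circle per gene, with a bar at each list's median and filled circles for genes past the threshold. The 7 filled circles all belong to the skeletal muscle list, whose median is -1.87, and the other medians lie between -0.40 and 0.50.

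In 3 genes the sham 14-day arrays stood apart. Marcks, a substrate of protein kinase C, read 1614, 1177 and 2038 and 1407, 1918 and 2023 in CCI at 14 and 21 days and 622, 1361 and 1427 in sham at 21 days, but 46.8 and 56.6 in sham at 14 days. Cox6c, a subunit of cytochrome c oxidase, whose CCI difference passed with array weights (adjusted p = 0.0481) and with the CCI arrays alone without replicate 1 (0.0491), read 3407, 3546 and 3253 and 1942, 2172 and 2182 in CCI, 1371, 1844 and 2057 in sham at 21 days and 359 and 219 in sham at 14 days. Rpl27, a ribosomal protein, had the same pattern with 309.8 and 379 in sham at 14 days against 1771, 1993 and 2168. Within CCI their differences were 0.16 (SE 0.29, adjusted p = 0.985), -0.69 (SE 0.18, adjusted p = 0.202) and -0.50 (SE 0.17, adjusted p = 0.503). The CCI day difference minus the sham day difference was -3.84 (SE 0.43, adjusted p = 0.000207), -3.25 (SE 0.26, adjusted p = 1.37e-05) and -2.97 (SE 0.25, adjusted p = 2.03e-05). Another probe set of Rpl27 had 0.61 (SE 0.47, adjusted p = 0.697), and one of Cox6c at background had 2.57 (SE 1.30, adjusted p = 0.489). Of the other Marcks probe sets, all at background, rc_AA859896_at departed the opposite way, by 3.33 (SE 0.51, adjusted p = 0.00306), so the probe sets of this gene disagreed.

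Over all probe sets the day difference in CCI departed from that in sham in 157, or 1.8%, with 80 higher (0.915%) and 77 lower (0.881%). Without CCI 21-day replicate 1 it was 159, or 1.82%, with 81 higher (0.927%) and 78 lower (0.892%). At an unadjusted p, 11.4% and 9.93% passed. Sham alone differed between the days in 225, or 2.57%, with 104 higher (1.19%) and 121 lower (1.38%) at 21 days, on 3 arrays against 2. Of the 32 probe sets that differed within CCI, 21 also passed the test of that departure. The 32 were called by the CCI day difference, which is part of the departure, so this count is no independent support. Among their muscle genes, the departure was -3.08 (SE 0.28, adjusted p = 2.96e-05) for Acta1 and -6.04 (SE 0.76, adjusted p = 0.000579) for Ckm. Tnnc2 and Myh4 did not pass, at -2.24 (SE 0.91, adjusted p = 0.367) and -2.03 (SE 0.55, adjusted p = 0.108).

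Leaving out replicate 1 of CCI at 21 days brought 13 further probe sets past the threshold, 8 of them never above background. The muscle gene Myl1 fell by that fit, -1.98 (adjusted p = 0.0157), as did Pvalb, -0.61 (adjusted p = 0.016). Replicate 1 also carried several positive differences alone. Vamp2, a vesicle fusion protein, read 3534, 500.3 and 635 at 21 days against 468, 521 and 479.5 at 14 days, and the cyclin Ccnd1 read 1812, 297 and 304 against 223, 186 and 251. Both had their high value on replicate 1 alone, and without it their differences were 0.20 and 0.43.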

How the data were processed

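Total RNA of dorsal root ganglia was read on 20 Affymetrix arrays in 8 groups. The values are intensities on a linear scale as deposited by the authors, 1 column per sample, with values below 0 and no detection calls. The software, the background step and the scaling are, in the sources used here, not given. The mean of every array with 2% trimmed at each end lay between 150.1 and 150.2, as after scaling to one trimmed mean. For 3 of the CCI samples the label calls the replicate number a lot batch, with no further detail.

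Negative intensities were set to 0, 16 was added and log2 taken. With limma 3.58.1 in R 4.3.3 (statmod 1.5.0), lmFit and eBayes fitted 8 group means to all 20 arrays, with 12 residual degrees of freedom, over 8740 probe sets after 59 controls were left out. Tests were two-sided and adjusted by Benjamini-Hochberg at 0.05. The fit was tested on simulated data. Folds are ratios of geometric means with each value raised to its array's background level. Figures used Python 3.11.15 and matplotlib 3.10.9.

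Of the probe sets, 7006 had 1 gene symbol, 308 several and 1426 none. Lists used the brightest probe set of each of 4736 genes. Promoters are RefSeq sequences on GRCr8, and genome positions of the array's probes are not given. The comparison, the lists and the genes were chosen with earlier results of these data known. Genes that could be named were up to 12 rises and 12 falls with the largest folds, up to 4 genes per list, and a fixed set of 25, of which 1 is not reported here. The rest of the muscle list, the sequence entries, Basp1, Lyz2, Lgals3, Col1a1, Vamp2, Ccnd1 and other genes given beside a count were chosen after their values were seen. Between CCI arrays of the same number, departures from the group mean had correlations of -0.07, 0.01 and -0.03, so the numbers do not pair them.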

Additional observations from a re-analysis of the deposited data

Results flagged for a closer look

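The difference between the days departed from the one in sham ganglia in 157 probe sets, and the test of that departure is what singles out the following, each given as the CCI day difference minus the sham day difference on the log2 scale. Among muscle probe sets it was -5.88 for Myl11, -6.04 for Ckm, -3.85 for Atp2a1, -4.26 for Eno3, -3.08 for Acta1, -2.50 and -1.29 for the Tpm1 probe sets M34134_s_at and X02412_at, and -3.71 for L00088expanded_cds#2_at. Sult2a6, below background, had -1.55.

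Among the sequence entries it was 2.88, 2.89 and 3.13 for M13100cds#3_f_at, M13100cds#4_f_at and M13100cds#5_s_at. It was 3.41 and 2.40 for X05472cds#1_s_at and X05472cds#3_f_at, and 2.98 and 2.10 for X53581cds#3_f_at and X53581cds#5_f_at. Rpl19l4 had 3.13 and Crp by U83119_f_at had 2.80. Kctd13 had 4.02, Prrc2c 2.31 and Gucy1b1 2.00. Marcks, Cox6c and Rpl27 had -3.84, -3.25 and -2.97, with low values on both sham 14-day arrays. The 2 sham 14-day arrays enter every one of these values. So does the CCI day difference, by which all but Marcks, Cox6c and Rpl27 had been called.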

How the results depend on the processing

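Under the alternatives tried, none of the 32 calls changed direction. Acta1, L00088expanded_cds#2_at, M13100cds#3_f_at, M13100cds#4_f_at, X05472cds#1_s_at, X05472cds#3_f_at and X53581cds#3_f_at passed under all 21 settings run for each. Crp by U83119_f_at lost its call in 11 of 21, Prrc2c in 10 of 20, Myh6 in 10 of 18, and Ldb3 and Mybpc1 in 9 of 18 each. The count of 32 became 85 with array weights and 57 with the CCI arrays alone without CCI 21-day replicate 1, a setting chosen after seeing the data. Leaving out 1 array at a time gave 24 to 47, and the replicate number as a block gave 34 (14 higher, 20 lower). For the departure from sham, the count of 157 became 251 with values floored at 200, 252 with that floor and CCI 21-day replicate 1 left out (chosen after seeing the data), 344 with array weights and 91 with arrays centred on their median. That centring put the median of all probe sets at -0.26 and the split at 33 higher and 58 lower. Leaving out 1 array gave 118 to 177, and the block gave 130. For sham alone, 225 became 358 with the floor, 118 with median centring, 146 without the dimmest probe sets, 103 with only the sham arrays, 503 with array weights and 231 with the block, and leaving out 1 array gave 148 (without sham 14-day replicate 1) to 211. Within CCI, median centring gave 32 calls (10 higher, 22 lower) and put the median of all probe sets at -0.20. Scaling to one trimmed mean left the counts at 32, 157 and 225. The causes were not tested. Signals near background limit most probe sets: at most 24.02% stood above it on any CCI array, and the number of arrays limits the precision.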
